A study of Mus musculus with 6 samples.

Results

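The integrated stress response genes described here were *Atf4*, the transcription factor at the centre of this response, and 9 genes that act with it or are known to be switched on by it: *Atf3*, *Atf5*, *Ddit3*, *Cebpg*, *Nupr1*, *Trib3*, *Chac1*, *Sesn2* and *Ppp1r15a*. They were picked by gene symbol, 10 of the 17001 rows of the expression table, and each symbol was found once. These 10 genes were chosen from the same comparison of the same libraries, so their values are a description. No p-value is printed for any of them, and counts of calls that include them are read as a description only.

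RNA was sequenced from cultured primary preosteoblasts, the precursors of bone-forming osteoblasts, taken from the skull vault of 3-day-old mice. The 3 control libraries were *Nell2* fx/fx, and the 3 libraries labelled cKO were Col1-cre; *Nell2* fx/fx, so that both groups carry the floxed alleles and the groups differ in Cre, which a Col1a1 promoter drives in cells of the osteoblast lineage. Expression was given in FPKM, that is, fragments divided by transcript length in kilobases and by the size of the library, which carries no read counts, so the depth of each library is unknown. Summed over all rows, a library held between 573307 and 606428 FPKM. The labels do not say whether the replicates of a group came from separate cultures, so any p-value measures only the spread between these libraries.

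The integrated stress response starts with kinases that phosphorylate the alpha subunit of the translation factor eIF2, among them PERK, which senses unfolded protein in the endoplasmic reticulum, and GCN2, which senses uncharged tRNA. Protein synthesis then falls in general, while translation of the *Atf4* mRNA increases, and ATF4 protein switches on genes for amino acid synthesis and import, redox balance and feedback control. In osteoblasts ATF4 is known for amino acid import and for its part in late differentiation, and because much of its control lies in translation and protein turnover, mRNA levels show only a portion of the response.

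The targeted gene was examined first. *Nell2* (chr15:95075230-95528559, minus strand, GRCm38, GENCODE release M21) was measured at 3.17, 2.59 and 1.88 FPKM in the controls. Libraries labelled cKO 1, 2 and 3 held 5.64, 1.61 and 5.74 FPKM. The group means were 2.55 ± 0.646 and 4.33 ± 2.36 FPKM (SD, n = 3 each), with an adjusted p of 0.591 in limma's moderated test. *Nell2* mRNA was thus not lower on average in the libraries labelled cKO, although the library labelled cKO 2 lay below all controls. The authors report loss of *Nell2* mRNA and protein in calvarial preosteoblasts of the mutants, by qRT-PCR and western blotting. They also report lower osteogenic and higher adipogenic factors in these cells. Gene-level values do not separate the floxed exons from the rest, and every direction given here follows the labels.

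The libraries also differed in ways that the labels do not give. The Y-linked gene *Eif2s3y*, which encodes a copy of the gamma subunit of eIF2, had an FPKM of 0, 0.17 and 29.2 in the controls and 27.0, 0 and 25.7 in the libraries labelled cKO 1, 2 and 3. Control 3 and the libraries labelled cKO 1 and cKO 3 therefore held Y-linked RNA, the pattern crossed the groups, and the libraries of a group did not all come from the same animals. *Col1a1*, the main collagen gene of bone cells, lay between 8053 and 8578 FPKM in all 6 libraries, and *Runx2*, the master regulator of the osteoblast lineage, between 10.98 and 14.7, so defining markers of the labelled cell type were present in every library. The library labelled cKO 1 stood apart from the other two of its group in most of the genes that follow, and the counts that pass the adjusted threshold are given with and without it.

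All 10 integrated stress response genes had an FPKM of at least 1 in all 6 libraries and entered the test, which covered the 11590 rows that reached 1 FPKM in 3 or more libraries. On the log2(FPKM + 1) scale, where low genes appear to differ less than they do, the fold change of all 10 was above 0, beside 44.2% of all tested genes. The median fold change of the 10 was 0.86 (range 0.40 to 1.89), beside a median of -0.02 and a 99th percentile of 0.66 over all tested genes. With limma and Benjamini-Hochberg adjustment, 0 of the 11590 genes (0.0%) had an adjusted p under 0.05, the smallest adjusted p being 0.312. The authors report differentially expressed genes from RNA sequencing of these cells, more of them upregulated than downregulated. Their methods name DESeq normalization of reads, while FPKM values were tested here, so the outcomes differ in method and are not like for like. Unadjusted p-values under 0.05 were found for 1521 genes, 5.37% of all tested genes on the higher side and 7.76% on the lower side, and all 10 integrated stress response genes were among the higher ones. The groups did not overlap, with the libraries labelled cKO higher, for 7 of the 10, beside 6.51% of tested genes, and for 11.8% of tested genes they did not overlap with the libraries labelled cKO lower. Since the comparison was used to choose the 10 genes, nothing is read from these counts.

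In average level over the 6 libraries the 10 genes ranged from *Atf4*, at 214 FPKM above 97.7% of the rows of the table, through *Nupr1* (120.1), *Atf5* (89.9), *Ddit3* (66.6), *Chac1* (30.6), *Trib3* (24.5), *Ppp1r15a* (18.7), *Sesn2* (17.1) and *Cebpg* (7.94) to *Atf3*, at 3.29 FPKM above 44.3% of the rows. FPKM is scaled by transcript length, so these levels can be set beside each other.

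**Figure D1:**
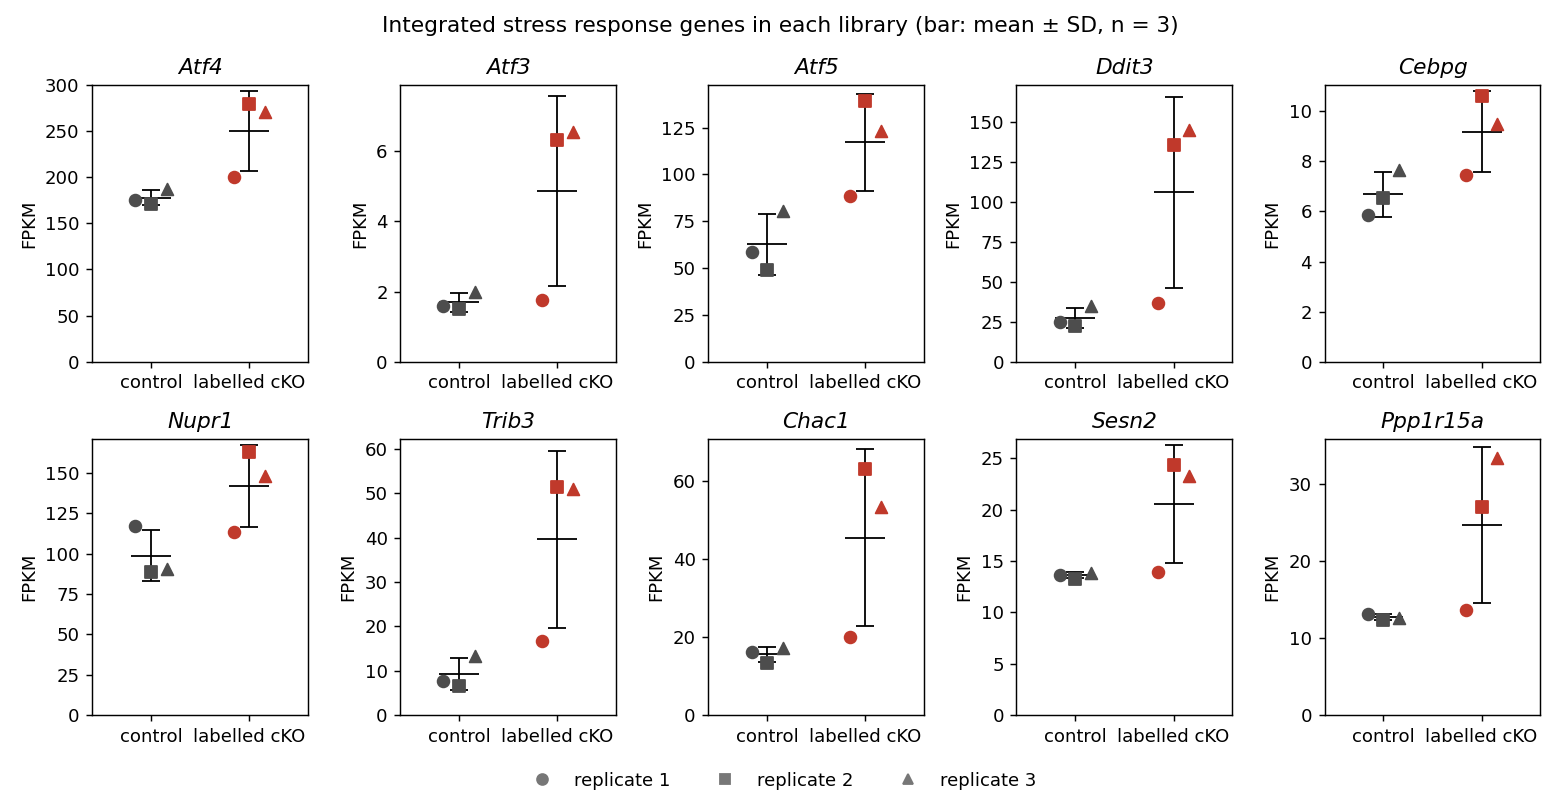
FPKM of each of the 10 integrated stress response genes (one panel per gene, y axis from 0) in the 3 control libraries (grey) and the 3 libraries labelled cKO (red). Marker shapes give the replicate number, bars the mean ± SD (n = 3), and the library labelled cKO 1 (circle) was the lowest of its group in all 10 panels.

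*Atf4*, the master transcription factor of the response (chr15:80255184-80257541, plus strand), had an FPKM of 175, 171 and 187 in the controls and 200.4, 279.7 and 271 in the libraries labelled cKO 1, 2 and 3. The groups did not overlap, but the library labelled cKO 1 lay closer to the controls than to the others of its group. The means were 178 ± 8.09 and 250.3 ± 43.5 FPKM (SD, n = 3 each), and the log2 fold change was 0.48 (SE 0.13).

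*Ddit3* encodes CHOP, a C/EBP-family factor induced by ATF4 and known for its part in stress-induced cell death (chr10:127290774-127296288, plus strand). Its FPKM was 24.8, 22.5 and 34.8 in the controls and 36.8, 136 and 145 in the libraries labelled cKO 1, 2 and 3. Here the library labelled cKO 1 was only just above control 3, while the other libraries labelled cKO stood 4.96- and 5.3-fold above the control mean. The means were 27.4 ± 6.56 and 106 ± 60.1 FPKM (SD, n = 3 each), and the log2 fold change was 1.71 (SE 0.51).

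*Atf3*, a stress-induced factor that can repress its targets (chr1:191170296-191218039, minus strand), was low in the controls at 1.59, 1.5 and 2.0 FPKM. In the libraries labelled cKO 1, 2 and 3 it was 1.75, 6.32 and 6.55 FPKM. The first of these fell within the control range, and the groups overlapped (log2 fold change 0.99, SE 0.37).

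*Atf5*, a relative of ATF4 that is likewise controlled through its translation (chr7:44812256-44816658, minus strand), had an FPKM of 58.75, 48.85 and 80.3 in the controls and 88.6, 139 and 123 in the libraries labelled cKO 1, 2 and 3. The groups did not overlap, and the log2 fold change was 0.90 (SE 0.22). Unlike the other 9 genes, *Atf5* varied as much within the controls, a log2 range of 0.71, as within the libraries labelled cKO, a log2 range of 0.65.

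*Cebpg*, a dimer partner of ATF4 (chr7:35046422-35056573, minus strand), stood at 5.87, 6.54 and 7.64 FPKM in the controls and at 7.44, 10.6 and 9.5 FPKM in the libraries labelled cKO 1, 2 and 3. The library labelled cKO 1 lay below control 3, and the log2 fold change of 0.40 (SE 0.14) was the smallest of the 10. *Nupr1*, a small stress-induced chromatin protein (chr7:126623249-126630861, minus strand), had an FPKM of 117, 88.7 and 90.25 in the controls and 114, 163 and 148 in the libraries labelled cKO 1, 2 and 3. Control 1 was here above the library labelled cKO 1, so that the groups overlapped (log2 fold change 0.51, SE 0.16).

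The other 4 genes are effectors or feedback regulators. *Trib3*, a pseudokinase that binds ATF4 and CHOP and dampens their activity (chr2:152337422-152344032, minus strand), had the largest fold change of the 10. It stood at 7.71, 6.60 and 13.4 FPKM in the controls and at 16.7, 51.4 and 50.95 FPKM in the libraries labelled cKO 1, 2 and 3. The groups did not overlap, and the means were 9.23 ± 3.63 and 39.7 ± 19.9 FPKM (SD, n = 3 each). The log2 fold change, taken on log2(FPKM + 1) per library, was 1.89 (SE 0.45).

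*Chac1*, an enzyme that degrades glutathione (chr2:119351229-119354381, plus strand), had an FPKM of 16.1, 13.4 and 17.25 in the controls and 20.0, 63.1 and 53.5 in the libraries labelled cKO 1, 2 and 3. All 3 libraries labelled cKO were above the controls, the first of them narrowly (log2 fold change 1.34, SE 0.39). *Sesn2*, a leucine sensor that holds back mTORC1 (chr4:132492032-132510501, minus strand), was 13.68, 13.29 and 13.88 FPKM in the controls and 13.90, 24.3 and 23.3 FPKM in the libraries labelled cKO 1, 2 and 3. The library labelled cKO 1 was barely above the highest control, and the groups are counted as not overlapping only by that margin (log2 fold change 0.52, SE 0.20).

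*Ppp1r15a* encodes GADD34, the inducible subunit that brings a phosphatase to eIF2 alpha and so ends the response (chr7:45522916-45526268, minus strand). Its FPKM was 13.2, 12.3 and 12.7 in the controls, a narrow range, and 13.65, 27.0 and 33.4 in the libraries labelled cKO 1, 2 and 3. The groups did not overlap, and the log2 fold change was 0.82 (SE 0.29).

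The spread among the libraries labelled cKO ran the same way in every gene. The library labelled cKO 1 was the lowest of its group in 10 of 10 genes, beside 37.6% of all tested genes, and the other libraries labelled cKO were above all controls in 10 of 10. Both held together for 15.1% of tested genes. After centring each gene on its mean over the 6 libraries, the average of the 10 genes was -0.50, -0.63 and -0.30 in the controls and -0.19, 0.83 and 0.79 in the libraries labelled cKO 1, 2 and 3 (log2 scale). The library labelled cKO 1 thus lay nearer to control 3 than to the others of its group on that scale. This average ranged over 1.02 within the libraries labelled cKO and over 0.33 within the controls. Per gene, the range was wider among the libraries labelled cKO than among the controls for 9 of 10 genes, beside 57.8% of tested genes, and the median range was 0.999 against 0.335 for the 10 genes and 0.20 against 0.17 for all tested genes. Among the controls, control 2 was the lowest control for 9 genes and control 3 the highest for 8.

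**Figure D2:**
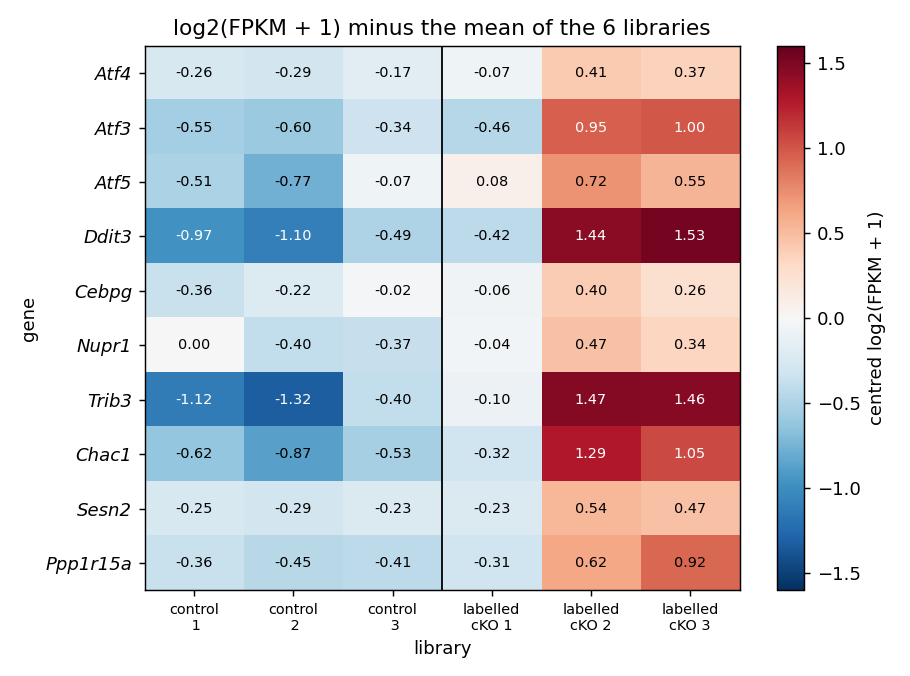
Heat map of log2(FPKM + 1) minus the mean of the 6 libraries, with the 10 genes as rows and the libraries as columns, controls left of the line and libraries labelled cKO right of it (red above the gene's mean, blue below). The libraries labelled cKO 2 and cKO 3 are red in every row, and the library labelled cKO 1 lies below both in every row.

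Around these averages the genes differed in size of change. *Atf3* and *Ppp1r15a* followed the average profile most closely, with root mean square differences of 0.15 and 0.15 on the log2 scale over the 6 libraries, and *Trib3* (0.54) and *Ddit3* (0.49) departed from it most, by a larger amplitude. Outside every list used here, the 8 genes nearest to the average profile were *Acot2*, *Apln*, *Aldoc*, *Phyhd1*, *Klf15*, *Chchd10*, *Nxph4* and *C2*, at root mean square differences of 0.07 to 0.13. *Klf15* (0.59, 0.30 and 1.05 FPKM in the controls) and *Chchd10* (0.73, 1.04 and 1.09) passed the filter on low values through the libraries labelled cKO, the controls alone falling short of it. Nothing is read from their place among the 8. *Acot2*, a mitochondrial acyl-CoA thioesterase, was the nearest, at 4.11, 4.20 and 4.74 FPKM in the controls and 5.74, 12.8 and 13.0 FPKM in the libraries labelled cKO 1, 2 and 3.

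When the library labelled cKO 1 was left out, the other 5 libraries gave 334 genes of 11522 with an adjusted p under 0.05 in limma, 158 of them higher in the libraries labelled cKO (1.37%). Of the 10 integrated stress response genes 7 were in that set, namely *Atf4*, *Atf3*, *Ddit3*, *Trib3*, *Chac1*, *Sesn2* and *Ppp1r15a*, and the median log2 fold change of the 10 was 1.13. In these 5 libraries the groups did not overlap for any of the 10 genes, beside 17.6% of tested genes with the libraries labelled cKO higher. This fit leaves 2 libraries in the group and removes the one with the smallest difference, and the same contrast chose the genes, so the counts are given as a description.

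The promoters of the 10 genes were searched for the C/EBP-ATF response element (CARE), the composite site that ATF4 binds with a C/EBP partner, written TGATGNAA or, on the other strand, TTNCATCA, and for the cAMP response element (CRE), written TGACGTCA, which reads the same on both strands. The windows ran from 250 bases before to 50 bases after the start in RefSeq (GRCm38.p6), and all 10 genes had one. A CARE was found in 4 of 10 genes, beside 4.51% of the 27025 genes with a window, and a CRE in 1 of 10, beside 2.03%. By window, a CARE was present in 4 of 11, beside 3.97% of 32851, and a CRE in 1 of 11, beside 1.79%. The motif letters do not overlap in a single site. The sites are shown because these genes are textbook targets of ATF4, 5′ to 3′ on the transcribed strand, with the motif in capitals and 11 flanking bases, except that the *Ppp1r15a* stretch ends at the base before the start.
Atf3 CARE: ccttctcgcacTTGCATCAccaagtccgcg
Nupr1 CARE: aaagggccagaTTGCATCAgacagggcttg
Trib3 CARE: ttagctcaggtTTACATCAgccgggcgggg
Chac1 CARE: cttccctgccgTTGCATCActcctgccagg
Ppp1r15a CRE: cgcctctccggTGACGTCAgcac

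The coordinates given here are those of the printed stretches, and distances are those of the first motif base from the RefSeq start. The *Atf3* motif (stretch chr1:191183425-191183454) began 110 bases before the start and lay in an intron of the GENCODE gene, whose longest transcript starts further upstream. The *Nupr1* motif (stretch chr7:126625562-126625591) also began 110 bases before the start, in an annotated *Nupr1* exon of another transcript. The *Chac1* motif (stretch chr2:119351038-119351067) began 193 bases before the start, outside any annotated gene, and the *Trib3* motif (stretch chr2:152344028-152344057) at base 15 of the RefSeq transcript, just outside the GENCODE gene. The *Ppp1r15a* CRE (stretch chr7:45526269-45526291) began 12 bases before the start. A match in these letters is a description of the sequence, and the genes with and without one both had fold changes above 0.

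Some of the 10 genes share exons with genes on the opposite strand, and whether the counting used strand is not stated in the sources used here, so reads from such pairs cannot be told apart. *Ddit3* overlaps *Mars*, a methionyl-tRNA synthetase gene, which stood at 32.3, 34.5 and 32.9 FPKM in the controls and at 35.4, 36.5 and 37.8 FPKM in the libraries labelled cKO (log2 fold change 0.14, SE 0.06, limma adjusted p = 0.396). *Atf5* overlaps *Nup62*, a nuclear pore gene with values of 17.3 to 19.4 FPKM in all 6 libraries and a log2 fold change of -0.03 (SE 0.06). The other coding partners, *Il4i1* beside *Atf5* and *Tulp2* beside *Ppp1r15a*, were at most 0.27 and 0.23 FPKM. Non-coding genes on the opposite strand, *Gm4189* at *Ddit3* and *Gm45095* at *Cebpg*, also share exons, and no values are given for them here. The part of reads from any partner in these values was not tested.

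The genes upstream of ATF4 were examined next, in lists of 9 eIF2 alpha kinases and their regulators, 8 subunits of eIF2 and its exchange factor eIF2B, and 10 phosphatase subunits and translation factors. Of these 27 genes, all tested, 20 had a log2 fold change below 0, the median was -0.04 and the range ran from -0.15 to 0.40. Log2 fold changes of the 4 kinases were -0.08 for *Eif2ak1* (HRI), -0.04 for *Eif2ak2* (PKR), -0.04 for *Eif2ak3* (PERK) and -0.03 for *Eif2ak4* (GCN2). *Eif2ak3*, for example, lay between 14.2 and 15.4 FPKM in all 6 libraries. The largest differences in the kinase list were those of *Oma1* (-0.11), *Impact* (-0.11) and *Gcn1* (-0.11), regulators of the HRI and GCN2 arms, and none of the 9 had an unadjusted p under 0.05. All 9 were below 0 (median -0.04), and 8 of the 9 with median-ratio scaling, under which 4 of the 8 eIF2 and eIF2B genes and 4 of the 10 phosphatase and translation factor genes were below 0. Kinase mRNA does not measure kinase activity or phosphorylation of eIF2, neither of which these data contain. The 334 genes found without the library labelled cKO 1 included no gene of these 3 lists.

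In the eIF2 and eIF2B list, 4 genes were above 0 and 4 below, and 1 of 8 had an unadjusted p under 0.05. This was *Eif2s2*, the beta subunit of eIF2, at 80.2, 84.9 and 88.9 FPKM in the controls and 91.7, 108 and 109 FPKM in the libraries labelled cKO (log2 fold change 0.27, SE 0.09, limma adjusted p = 0.312). The next largest were *Eif2b5* (-0.15), *Eif2b1* (-0.12) and *Eif2b3* (0.10). The X-linked gamma subunit *Eif2s3x* had an FPKM of 45.03, 76.5 and 43.7 in the controls and 40.5, 71.9 and 43.5 in the libraries labelled cKO, and it was high where Y-linked RNA was near 0, except in control 1. Added to its Y-linked copy it came to 45.03, 76.6 and 72.9 in the controls and 67.5, 71.9 and 69.2 in the libraries labelled cKO, with control 1 lowest.

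Among the phosphatase and translation factors, *Eif4ebp1*, an inhibitor of cap-dependent translation that is also a known ATF4 target, was the only one with an unadjusted p under 0.05. Its FPKM was 129, 122 and 129.8 in the controls and 159, 161 and 185 in the libraries labelled cKO, without overlap (log2 fold change 0.40, SE 0.08, limma adjusted p = 0.312). The constitutive counterpart of GADD34, *Ppp1r15b*, differed less (0.15, SE 0.08), as did *Ppp1ca* (-0.08) and *Ppp1cc* (-0.08), which encode catalytic subunits of the phosphatase.

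The ATF4 targets outside the 10 genes were a list of 21, mostly for amino acid synthesis and transport, one-carbon metabolism and secreted stress hormones. *Slc7a11* passed the filter on low values only through the libraries labelled cKO and was left out of the counts. The other 20 all had log2 fold changes above 0, beside 44.2% of all tested genes, with a median of 0.61. This list was drawn up with earlier results of these data known, and so is no independent support. Of the 20, 18 had an unadjusted p under 0.05, beside 5.37% of all tested genes on the higher side. The groups did not overlap for 12, beside 6.51% with the libraries labelled cKO higher, while 0 passed the adjusted threshold in limma (0.0% of all tested genes). Without the library labelled cKO 1, 15 of the 20 passed it, beside 1.37% of all tested genes on the higher side.

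*Fgf21*, a secreted metabolic hormone, showed the largest fold change of that list. Its FPKM was 3.02, 2.11 and 3.09 in the controls and 5.56, 17.9 and 20.4 in the libraries labelled cKO 1, 2 and 3, without overlap (log2 fold change 1.90, SE 0.43, limma adjusted p = 0.312). *Cth*, which makes cysteine from cystathionine, followed at 3.38, 3.53 and 6.34 FPKM in the controls and 6.90, 13.7 and 13.1 FPKM in the libraries labelled cKO (log2 fold change 1.16, SE 0.29). *Stc2*, a secreted glycoprotein, had a log2 fold change of 1.12 (SE 0.37) and *Slc6a9*, a glycine transporter, one of 1.0 (SE 0.25).

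The serine and one-carbon enzymes had log2 fold changes on both sides of the list's median: *Psph* (0.67), *Mthfd2* (0.64), *Shmt2* (0.53), *Phgdh* (0.50) and *Psat1* (0.44). *Asns*, asparagine synthetase, stood at 58.5, 50.6 and 71.6 FPKM in the controls and at 75.1, 110.0 and 103 FPKM in the libraries labelled cKO (log2 fold change 0.66, SE 0.18). The amino acid transporters *Slc7a5* (0.84), *Slc3a2* (0.71), *Slc7a1* (0.56) and *Slc1a4* (0.53), with *Vldlr* (0.85), *Gpt2* (0.58), *Ddit4* (0.42) and *Aldh18a1* (0.25), completed the 18. Those counted without an unadjusted p under 0.05 were *Pycr1* (0.25) and *Gdf15* (0.54), a stress hormone. *Gdf15* ran from 0.96 to 6.19 FPKM among the libraries labelled cKO alone. *Slc7a11*, the cystine transporter left out of the counts, had a log2 fold change of 0.33. A CARE was present in the promoters of 6 of the 19 targets that had a RefSeq window, beside 4.51% of all genes with a window. The 6 were *Asns*, *Pycr1*, *Slc7a11*, *Slc1a4*, *Vldlr* and *Fgf21*. The average centred profile of all 21, *Slc7a11* included, was -0.39, -0.48 and -0.17 in the controls and -0.12, 0.58 and 0.57 in the libraries labelled cKO 1, 2 and 3. Because it includes *Slc7a11*, this profile is a description only.

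**Figure D3:**
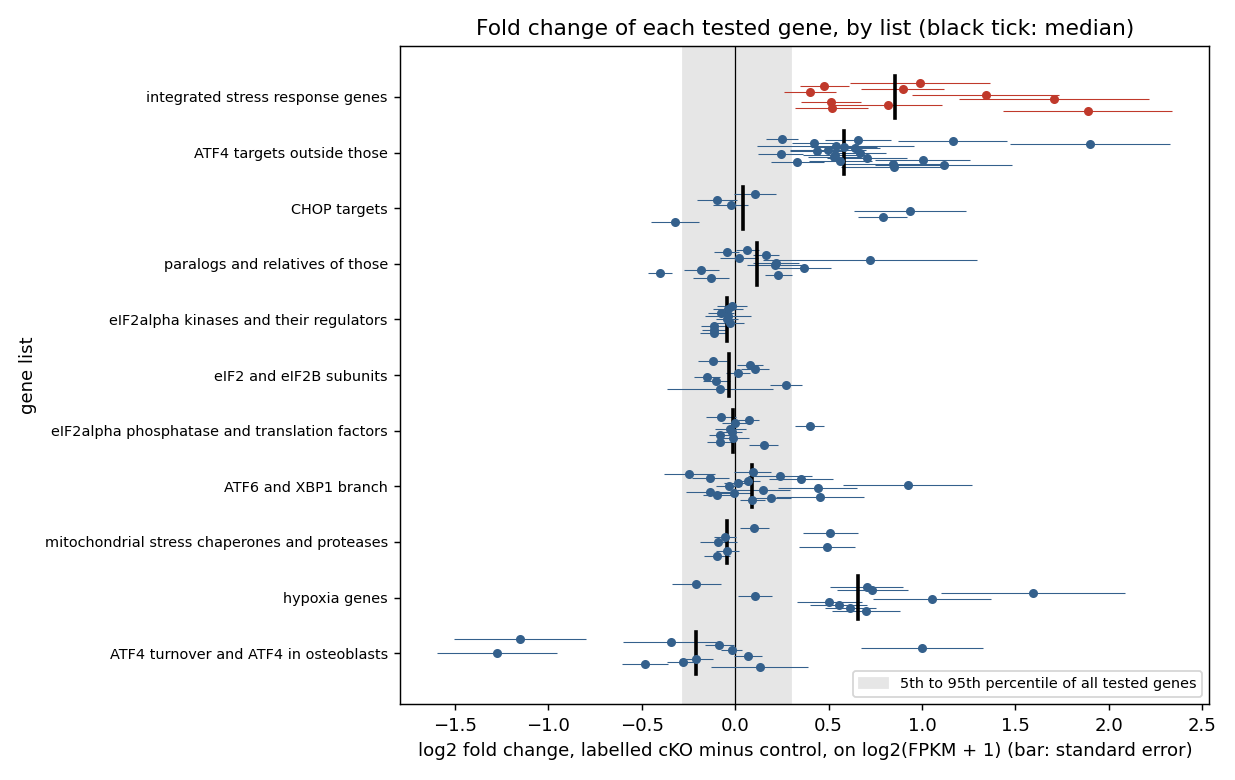
Log2 fold change, libraries labelled cKO minus controls, on log2(FPKM + 1) (x axis) of each tested gene (points, bars are standard errors) in 11 gene lists (y axis), with a black tick at each list's median and the 5th to 95th percentile of all tested genes in grey (-0.28 to 0.30). The 10 integrated stress response genes (red) and the ATF4 targets lie to the right of 0, and the 9 genes of the kinase list lie just left of 0 (8 of 9 with median-ratio scaling). The ATF4 target row and its median include *Slc7a11*, and the hypoxia row and its median *Ankrd37*, which passed the filter on low values only through the libraries labelled cKO.

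Targets assigned to CHOP were mixed in sign: of 6 genes, 3 had fold changes above 0 and 3 below, with a median of 0.04. *Ero1a*, an oxidase of the endoplasmic reticulum, had an FPKM of 14.3, 13.4 and 14.5 in the controls and 15.8, 37.6 and 35.55 in the libraries labelled cKO 1, 2 and 3 (log2 fold change 0.93, SE 0.30, limma adjusted p = 0.312). *Gadd45a*, a growth arrest gene, was also higher (0.79, SE 0.13), without overlap. *Tnfrsf10b*, the death receptor DR5, was on the lower side (-0.32, SE 0.13) and *Bbc3* (0.11) and *Bcl2l11* (-0.10), which encode cell death proteins, did not pass an unadjusted p of 0.05. Without the library labelled cKO 1, *Ero1a* and *Gadd45a* passed the adjusted threshold in limma.

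The ATF6 and XBP1 branch of the unfolded protein response, which answers stress of the endoplasmic reticulum through other sensors than PERK, was mixed as well. Of 17 genes 11 were above 0 and 6 below, the median was 0.09, and 1 had an unadjusted p under 0.05. *Herpud1*, which serves the degradation of misfolded proteins and is also known as an ATF4 target, had an FPKM of 35.3, 39.9 and 38.4 in the controls and 39.45, 86.2 and 112 in the libraries labelled cKO 1, 2 and 3 (log2 fold change 0.92, SE 0.35, limma adjusted p = 0.343). *Hspa5*, the chaperone BiP, stood at 348, 396 and 368 FPKM in the controls and at 355, 544 and 658 FPKM in the libraries labelled cKO 1, 2 and 3, with overlap (log2 fold change 0.44, SE 0.21, limma adjusted p = 0.42). *Sdf2l1* (0.45) and *Dnajb9* (0.35) had the same layout, and *Calr* (-0.24), *Hsp90b1* (-0.04) and *Pdia4* (-0.01) did not. Without the library labelled cKO 1, *Hspa5*, *Dnajb9* and *Herpud1* passed the adjusted threshold.

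Of 7 mitochondrial stress genes, 3 were above 0, and the median was -0.04. An unadjusted p under 0.05 was found for *Hspa9*, the mitochondrial HSP70, at a log2 fold change of 0.51 (SE 0.15), and the protease gene *Lonp1*, at 0.49 (SE 0.15), both without overlap. The chaperone genes *Hspd1* (-0.05) and *Hspe1* (-0.09) stood beside them on the other side of 0. *Hspa9* and *Lonp1* passed the adjusted threshold without the library labelled cKO 1.

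Genes of the hypoxia list, known targets of HIF of which some, such as *Vegfa*, are known to respond to ATF4 as well, were also described. *Ankrd37* passed the filter on low values through the libraries labelled cKO, the controls alone falling short of it, and was left out of the counts. Of the other 9 genes, 8 were above 0, beside 44.2% of all tested genes, and the median log2 fold change was 0.62. On the higher side, 7 had an unadjusted p under 0.05, beside 5.37% of all tested genes, and the groups did not overlap for 6, beside 6.51%. *Car9*, carbonic anhydrase IX, had an FPKM of 9.90, 12.8 and 12.7 in the controls and 15.05, 58.9 and 58.2 in the libraries labelled cKO 1, 2 and 3 (log2 fold change 1.59, SE 0.49, limma adjusted p = 0.312). *Ndrg1* (1.05), *Bnip3* (0.74), *Vegfa* (0.70), *Slc2a1* (0.62), *Pgk1* (0.55) and *Pdk1* (0.50) followed, and *Adm* (-0.21) was on the lower side. The average centred profile of all 10, *Ankrd37* included, was -0.35, -0.30 and -0.30 in the controls and -0.12, 0.49 and 0.58 in the libraries labelled cKO 1, 2 and 3. Because it includes *Ankrd37*, this profile is a description only. Without the library labelled cKO 1, 7 of the 9 passed the adjusted threshold, beside 1.37% of all tested genes on the higher side. No hypoxia gene promoter of the 9 with a window held a CARE, beside 4.51% of all genes with a window, and nothing is read from this count. The part of hypoxia in the values of the integrated stress response genes was not tested.

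**Figure D4:**
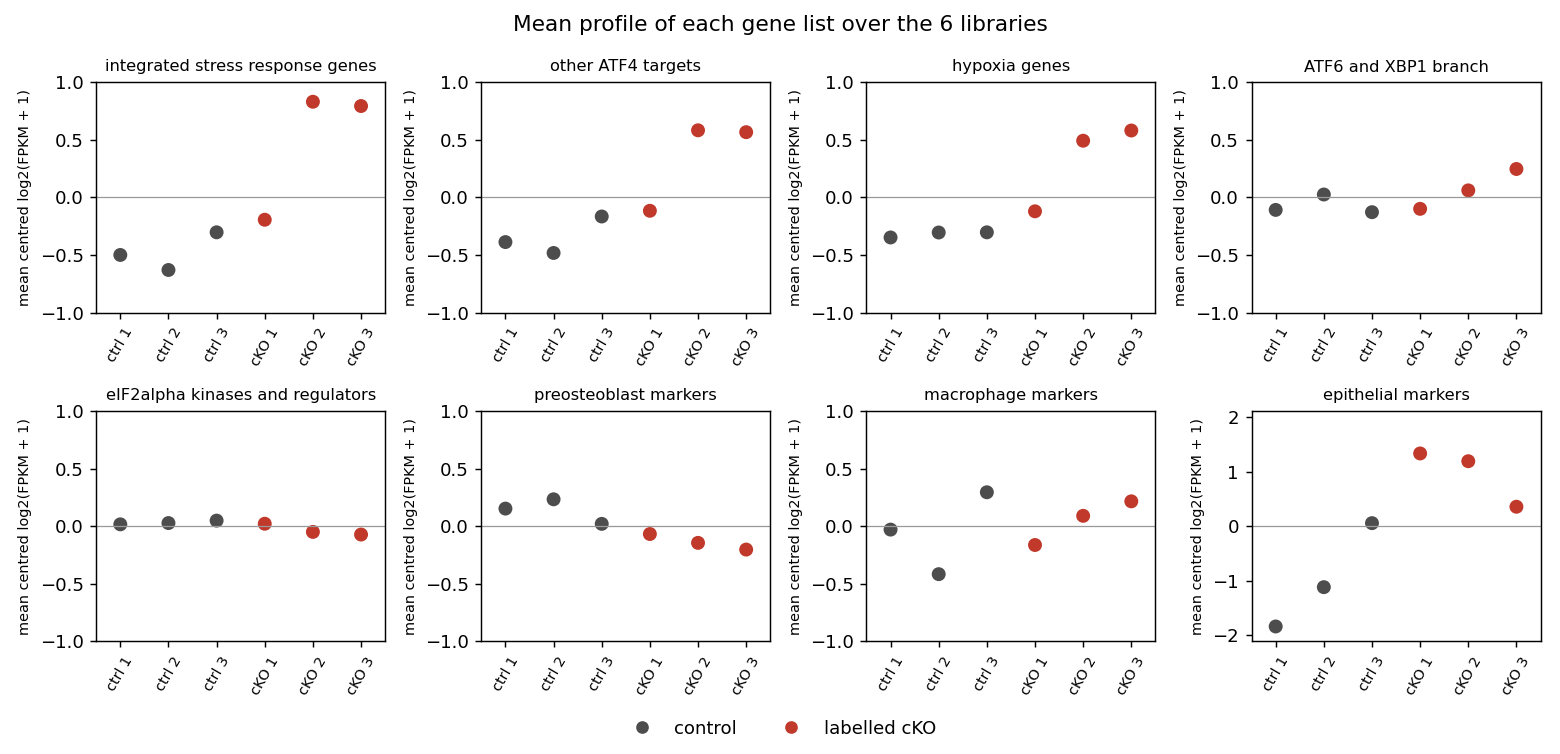
Average of log2(FPKM + 1), centred on each gene's mean over the 6 libraries (y axis, scale set per panel), for 8 gene lists in the 3 controls (grey) and the 3 libraries labelled cKO (red). The 10 integrated stress response genes, the other ATF4 targets and the hypoxia genes are highest in the libraries labelled cKO 2 and cKO 3, and the epithelial markers in the library labelled cKO 1. The ATF4 target panel includes *Slc7a11*, and the hypoxia panel *Ankrd37*, which passed the filter on low values only through the libraries labelled cKO. The epithelial panel averages *Krt8*, *Krt18* and *Epcam*, which all passed that filter only through the libraries labelled cKO, so it is a description only. Of these, *Epcam* was not highest in the library labelled cKO 1.

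Relatives of the 10 genes were described to see which family members shared the pattern. Of 12 tested, 8 were above 0 with a median of 0.12. *Jdp2* (0.37, SE 0.15), *Trib1* (0.23, SE 0.07) and *Atf7* (0.17, SE 0.07) had unadjusted p-values under 0.05 on the higher side, all smaller than the differences of *Atf3* and *Trib3*. *Sesn3*, a relative of *Sesn2*, went the other way, at 30.7, 31.95 and 32.2 FPKM in the controls and 25.2, 23.3 and 22.55 FPKM in the libraries labelled cKO 1, 2 and 3. The groups did not overlap (log2 fold change -0.40, SE 0.07, limma adjusted p = 0.312), and *Sesn1* was also lower in value (-0.18, SE 0.09). *Cebpb*, a further C/EBP gene, varied so widely, from 9.5 to 46.2 FPKM in the controls, that its log2 fold change of 0.72 (SE 0.57) was within the spread. Of these 12 relatives, *Sesn3* alone passed the adjusted threshold without the library labelled cKO 1, on the lower side.

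Genes that tie ATF4 to osteoblasts gave the reverse direction in part. *Egln3*, a prolyl hydroxylase that binds ATF4 and is itself a known HIF target, had an FPKM of 6.13, 6.01 and 6.64 in the controls and 7.07, 18.3 and 18.6 in the libraries labelled cKO 1, 2 and 3 (log2 fold change 1.0, SE 0.33, limma adjusted p = 0.315). *Ibsp*, bone sialoprotein, stood at 124, 61.9 and 48.8 FPKM in the controls and at 34.6, 26.2 and 27.65 FPKM in the libraries labelled cKO 1, 2 and 3, without overlap (log2 fold change -1.27, SE 0.32, limma adjusted p = 0.312). *Bglap*, osteocalcin, a known ATF4 target in mature osteoblasts, was 8.61, 2.52 and 5.16 FPKM in the controls and 1.20, 1.56 and 2.38 FPKM in the libraries labelled cKO (log2 fold change -1.15, SE 0.35). *Bglap2*, a further osteocalcin gene, was 7.93, 11.4 and 6.68 FPKM in the controls and 5.28, 9.68 and 5.23 FPKM in the libraries labelled cKO. Its groups overlapped, and it differed less (log2 fold change -0.34, SE 0.26, limma adjusted p = 0.583). The regulators *Sp7* (-0.48) and *Runx2* (-0.21) were on the lower side as well, *Runx2* with an unadjusted p just above 0.05. For *Ibsp* and *Bglap* the library labelled cKO 1 lay below every control together with the others of its group. *Egln3* alone of the 11 genes in this list passed the adjusted threshold without the library labelled cKO 1. In bulk RNA, fewer cells of a kind and less RNA per cell cannot be told apart.

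Marker levels of cells that a skull-vault culture could hold were set beside these values. The 6 epithelial markers, of which *Krt18* was the most abundant, summed to 0.46, 3.61 and 13.4 FPKM in the controls and 42.7, 36.9 and 18.2 FPKM in the libraries labelled cKO 1, 2 and 3. This sum, carried by *Krt18* and *Krt8*, was highest in the library labelled cKO 1, where the 10 genes were lowest of their group. *Krt18*, *Krt8* and *Cdh1* were each highest there. *Epcam* (1.37, 1.58 and 1.21 FPKM in the libraries labelled cKO 1, 2 and 3), *Krt14* (0.13, 1.35 and 1.19) and *Krt5* (0.08, 0.30 and 1.04) were not. *Krt18* stood at 0.23, 1.41 and 6.24 FPKM in the controls and at 21.9, 17.0 and 8.10 FPKM in the libraries labelled cKO 1, 2 and 3. *Krt18*, *Krt8* and *Epcam*, the 3 epithelial markers tested, passed the filter on low values through the libraries labelled cKO, the controls alone falling short of it, so no test of them is given. The 6 adipocyte markers summed to 34.9, 40.0 and 50.9 FPKM in the controls and 76.1, 119.5 and 81.9 FPKM in the libraries labelled cKO, with *Fabp4* the most abundant and *Adipoq* and *Plin1* at most 0.39 and 0.10 FPKM. All 4 tested adipocyte markers had log2 fold changes above 0, and 2 had an unadjusted p under 0.05, *Fabp4* (1.68, SE 0.24) and *Pparg* (0.35, SE 0.09), both without overlap. The part of these cells in the result was not tested.

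For the cartilage markers, mostly *Col2a1*, the sums were 155, 168 and 99.2 FPKM in the controls and 154, 179 and 174 FPKM in the libraries labelled cKO, with *Matn1* at 0 in 5 libraries and at 0.03 in the other. All 5 tested cartilage markers had log2 fold changes above 0 (median 0.45), and 3 had an unadjusted p under 0.05, *Comp* (0.65, SE 0.21), *Acan* (0.50, SE 0.20) and *Col9a1* (0.45, SE 0.16). Their part in the result was not tested. The macrophage sums were 55.95, 33.3 and 86.4 FPKM in the controls and 44.6, 62.9 and 68.8 FPKM in the libraries labelled cKO, chiefly *Lyz2*, with *Ptprc* at most 0.18. Muscle markers, led by *Acta1*, summed to 29.8 to 55.1 FPKM over the 6 libraries, and endothelial markers, led by *Cdh5*, to 1.84 to 3.87 FPKM. In the muscle, endothelial and macrophage lists no gene tested had an unadjusted p under 0.05. Of the 7 preosteoblast markers *Sp7*, *Alpl* (-0.45) and *Msx2* (-0.62) had an unadjusted p under 0.05 on the lower side, while the sum, carried by *Col1a1* and *Col1a2*, stayed between 15960 and 16960 FPKM. Among all these marker lists, 1 gene passed the adjusted threshold without the library labelled cKO 1, the adipocyte marker *Fabp4*.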

How the data were processed

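RNA of 6 libraries, 3 control and 3 labelled cKO, was analysed. The authors mapped paired-end reads with HISAT2 (the labels name GRCm38) and deposited FPKM values rounded to 2 decimals, 1 row per gene symbol. Their methods name DESeq for normalization, a step that FPKM does not carry. The annotation release and the program that gave FPKM are not given in the sources used here. No count test was run.

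From these values log2(FPKM + 1) was compared with limma 3.58.1 in R 4.3.3 (lmFit, eBayes, Benjamini-Hochberg adjustment) over the rows that reached 1 FPKM in 3 or more libraries. The script was tested on simulated data. Positions are from GENCODE M21 and promoters from RefSeq, both GRCm38, which may not be the authors' annotation. The members and gene lists were chosen with earlier results of these data known. Named were the 10 members, *Nell2*, per list the up to 4 genes with the largest fold change and any with an unadjusted p under 0.05, and the 8 genes nearest to the members' average profile. Other genes in the text were named after their values were seen. Alternatives were the pseudocount, the filter, scaling, the variance trend, Y-linked expression as a covariate, the replicate number as a block, and each library left out. *Xist* was not analysed here. The result for 1 gene of a list is not reported here.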

Additional observations from a re-analysis of the deposited data

How the results depend on the processing

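All 130 fold changes of single integrated stress response genes, over 13 settings, stayed above 0. In the 7 settings that kept every library, 0 genes had an adjusted p under 0.05 in limma, and 1202 to 1996 an unadjusted one (1521 as reported). Leaving out each library in turn gave 0 to 334 genes with an adjusted p under 0.05 (334 without cKO 1 and 2 without control 3) and 852 to 2459 with an unadjusted one. The same fits gave 0 to 7 of the 10 genes with an adjusted p under 0.05, 7 to 10 whose groups did not overlap (beside 8.48% to 17.6% of all tested genes in the same fits), 10 above 0 in each, a median log2 fold change of 0.65 to 1.13, and a range of the average profile of 0.037 to 1.02 within the libraries labelled cKO and of 0.13 to 0.33 within the controls. The smallest of these ranges within the libraries labelled cKO was that without cKO 1. The ATF4 targets, with *Slc7a11* where it passed the filter, had a median of 0.53 to 0.80 and 0 to 15 adjusted calls. The median log2 fold change of all tested genes turned from -0.02 to 0.0028 with median-ratio scaling. With the replicate number as a block, 0 genes had an adjusted p under 0.05 and 1465 an unadjusted one. The numbers do not pair the samples: the deviations of same-numbered libraries correlated at 0.03, -0.17 and 0.21 across genes. Depth is unknown, which limits the low genes, *Atf3* above all.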
